A study of Homo sapiens with 10 samples.

Results

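The 10 genes described here encode secreted signals of activated fibroblasts and proteins of the NF-kB pathway. They were picked by symbol from the tables of RNA-Seq and Ribo-Seq values of human BJ fibroblasts, and all 10 are among the 13279 transcripts of the RNA-Seq table. The Ribo-Seq table lists 11337 transcripts, and 9 members are in it. IL8, named CXCL8 in newer annotation, was read in RNA-Seq only, and its ribosome density was not analysed here. BJ cells are a line of skin fibroblasts, here immortalised with hTERT. One culture condition served as the control, with no vehicle named, and the others received nutlin-3a for 2, 4, 6 or 19 h. Nutlin-3a blocks MDM2, the protein that keeps p53 low, and the study used it to ask how p53 activation alters transcript levels and their translation. RNA-Seq measured poly(A) RNA and Ribo-Seq measured the fragments of mRNA that ribosomes protect, so that its value per transcript is the ribosome density. Each of the 10 groups held 1 library, so no difference has a replicate check, no p-value was computed, and the intervals given cover counting error only.

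NF-kB transcription factors are held in the cytoplasm by inhibitors of the IkB family. Signals from cytokine receptors destroy these inhibitors, the factors enter the nucleus, and they switch on cytokine genes together with genes for their own inhibitors, which closes the loop. The mRNAs of such cytokines are known to be short-lived, and fibroblasts are a known source of IL6 and of chemokines.

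The p53 response was present in these libraries. Of 10 listed p53 targets 9 were tested, of which 6 were at least 2-fold higher in RNA at 2 h and 9 at each later time. CDKN1A, the cell-cycle inhibitor, stood at 68.6 FPKM in the control and at 212, 915, 1204 and 1316 FPKM at 2, 4, 6 and 19 h (FPKM, a level scaled to transcript length and library size). All 10 fibroblast markers were above 1 FPKM in both assays, with VIM, the intermediate filament of mesenchymal cells, and COL1A1, a collagen chain, the most abundant in RNA-Seq and Ribo-Seq. Of 8 leukocyte markers 2 reached 1 FPKM in RNA-Seq, and their summed level of 62.8 to 88.0 FPKM was mostly CD68, a lysosomal protein, while PTPRC, which defines leukocytes, did not pass 0.246. No endothelial marker and only KRT8 among 7 epithelial markers reached 1 FPKM in RNA-Seq. The summed RNA level of endothelial markers was at most 0.377 FPKM, and that of epithelial markers ran from 10.8 to 14.4. By the step size of their values, RNA-Seq libraries were scaled to between 23845557 and 27554288 reads, and Ribo-Seq libraries to between 7744899 (19 h) and 14460726 (4 h). The sources used here place no run or day on the libraries of 2 and 4 h, so treatment time and the handling of a library cannot be told apart.

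The stretch of promoter from 100 to 41 bases before the annotated start is shown for the 7 members that have an entry in the RefSeq promoter table (GRCh38.p14), because it holds nearly all their matches to an NF-kB type site. The motif searched was GGNNNTTCC on both strands, and matches are in capitals. Each sequence runs in the direction of its gene.
IL6 (chr7:22727100-22727159, plus strand): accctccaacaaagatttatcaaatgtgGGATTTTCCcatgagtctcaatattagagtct
IL8 (chr4:73740469-73740528, plus strand): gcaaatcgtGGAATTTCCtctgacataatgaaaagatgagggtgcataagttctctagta
CXCL1 (chr4:73869293-73869352, plus strand): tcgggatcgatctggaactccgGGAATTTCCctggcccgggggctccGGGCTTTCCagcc
CXCL2 (chr4:74099236-74099295, minus strand): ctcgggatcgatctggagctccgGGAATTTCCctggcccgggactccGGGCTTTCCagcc
HBEGF (chr5:140346644-140346703, minus strand): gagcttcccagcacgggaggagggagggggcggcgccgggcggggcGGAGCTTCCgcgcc
NFKBIA (chr14:35404790-35404849, minus strand): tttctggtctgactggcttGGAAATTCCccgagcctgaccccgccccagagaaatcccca
TNFAIP3 (chr6:137867159-137867218, plus strand): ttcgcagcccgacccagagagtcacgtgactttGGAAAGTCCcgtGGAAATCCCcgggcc

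All 7 windows hold a match, and CXCL1 and CXCL2, paralogs on the same chromosome, carry a near-identical pair. Both matches of TNFAIP3 read on the strand opposite to its gene. Over the full 300 bases of the table's windows, 20.1% of 35116 promoters hold the motif, and NFKBIA has 1 further match, 242 bases before its start. The motif and the stretch shown were chosen with these genes in view. The count of windows and the share are therefore a description, and a match is a string of letters, not a shown site.

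In the control, RNA levels per length spanned from 48.8 FPKM for CCL2 to 0.392 for CXCL2. NFKBIA followed CCL2 with 19.8, then TNFAIP3 with 9.80, HBEGF with 6.50, RELB with 4.51, CXCL1 with 3.29, IL8 with 1.62, LIF with 0.962 and IL6 with 0.899. Only LIF and IL6 in this order lay within counting error of each other, with a ratio of 1.07 (95% interval 0.708 to 1.65). At 4 h IL8, HBEGF, RELB and LIF lay close together, with 12.0, 11.4, 11.2 and 10.6 FPKM. Neighbours in this order did not differ beyond counting error, while its ends, IL8 and LIF, were not compared. In ribosome density CCL2 and NFKBIA led in all 5 libraries, and were within counting error of each other at 2 h and 19 h.

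**Figure D1:**
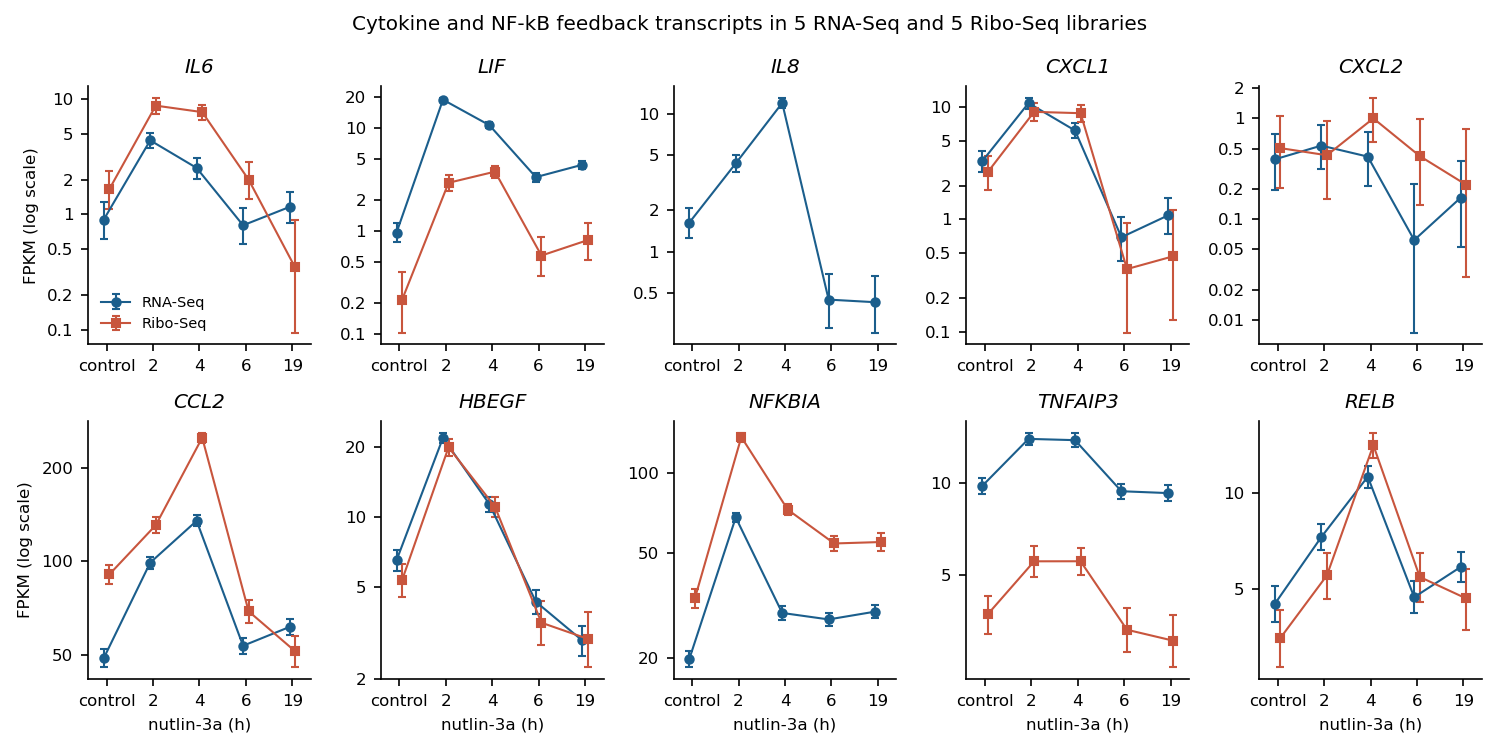
Level of each member by library, with FPKM on a log axis and the control and the hours of nutlin-3a spaced evenly on the x axis. Circles are RNA-Seq, squares are Ribo-Seq (1 library each, none for IL8), bars are 95% Poisson counting intervals, and 9 of 10 members have their 2 highest RNA levels at 2 and 4 h.

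The levels at 2 and 4 h stood above the others. Of the 10 members, 7 had their highest RNA level at 2 h and 3 at 4 h, and none in the control or at 6 or 19 h. For 9 of 10 the 2 highest RNA libraries were those of 2 and 4 h, which was so for 8.07% of the 7015 tested genes. The exception was NFKBIA, whose second highest level was at 19 h, with 29.9 FPKM against 29.5 at 4 h and overlapping counting intervals. In Ribo-Seq 4 members peaked at 2 h and 5 at 4 h, and 8 of 9 had those libraries as their top pair, against 12.8% of tested genes. The exception there was CXCL2, whose control and 2 h densities rest on 7 and 6 reads. The members were picked with earlier results of these data known. IL6, IL8, CXCL2 and LIF are not among the tested genes that gave the shares. The shares are therefore a description and do not stand as support for a group response. The order of 2 and 4 h was within counting error for TNFAIP3 and CXCL2 in both assays, and for CXCL1 and IL6 in density. In bulk RNA, fewer cells that make a transcript and less of it per cell cannot be told apart.

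LIF and IL6 act through receptors that share the gp130 chain, and LIF was the member farthest above its control. LIF RNA was 0.962 FPKM in the control and 18.8, 10.6, 3.33 and 4.39 FPKM after 2, 4, 6 and 19 h. The 2 h level was 19.6-fold that of the control (95% interval 15.9 to 24.5, 2016 against 91 reads), and at 19 h it was still 4.57-fold (3.64 to 5.79). LIF ribosome density was 0.214, 2.93, 3.76, 0.575 and 0.813 FPKM in the same order, so density was highest at 4 h, where RNA had already come down from its level at 2 h. The step from 2 to 4 h was 0.565-fold in RNA (0.523 to 0.609) and 1.28-fold in density (1.03 to 1.60). The control density rests on 10 reads, and the 4 h density was 17.6-fold higher with a wide interval of 9.37 to 37.2.

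IL6, the cytokine that drives acute-phase responses, had less RNA than LIF in the treated libraries and was within counting error of its control level by 6 h. Its RNA stood at 0.899, 4.37, 2.52, 0.802 and 1.16 FPKM in the control and at 2, 4, 6 and 19 h. The 2 h level was 4.87-fold the control (3.33 to 7.33), and at 6 and 19 h it was 0.892-fold (0.532 to 1.5) and 1.29-fold (0.800 to 2.09). Its ribosome density was 1.65, 8.76, 7.69, 2.00 and 0.346 FPKM. Density at 2 h was 5.30-fold the control (3.55 to 8.18), and at 19 h it was 0.209-fold (0.0535 to 0.597) on 4 reads against 29. IL6 and LIF each stayed under 5 FPKM in every library of 1 assay and so were not among the tested genes, which reached 5 FPKM in 1 or more libraries of RNA-Seq and also of Ribo-Seq.

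The chemokines draw in neutrophils (IL8, CXCL1 and CXCL2) or monocytes (CCL2). IL8 RNA was 1.62 FPKM in the control and 4.38, 12.0, 0.447 and 0.428 FPKM after 2, 4, 6 and 19 h. At 4 h it was 7.41-fold the control (5.72 to 9.73). From 4 to 6 h it dropped to 0.0372 of its level (0.0228 to 0.0574), the steepest such step in RNA of the 10 members. At 6 h the level was 0.275-fold the control (0.160 to 0.456), on 21 reads against 66. The levels of 6 and 19 h lie under 1 FPKM, and once raised to 1 FPKM their log2 change was -0.70, short of 2-fold.

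CXCL1 had the same shape with an earlier RNA maximum. CXCL1 RNA was 3.29, 10.9, 6.19, 0.695 and 1.09 FPKM, and its density was 2.64, 9.07, 8.83, 0.362 and 0.471 FPKM, in the order control, 2, 4, 6 and 19 h. RNA rose 3.30-fold at 2 h (2.60 to 4.24) and was below the control at 6 h, at 0.211-fold (0.125 to 0.344). Density rose 3.44-fold at 2 h (2.33 to 5.20) and 3.35-fold at 4 h (2.29 to 5.03), and at 6 h it was 0.137-fold the control (0.0354 to 0.385) on 4 reads. The low levels of 6 and 19 h lie near or under 1 FPKM, the floor used for calls, and with a floor of 5 FPKM CXCL1 was called neither lower at any time nor higher in density.

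CXCL2 was at most 1.00 FPKM in any library and rests on 2 to 17 reads in each. Its RNA was 0.392, 0.536, 0.417, 0.062 and 0.163 FPKM, with a 2 h level of 1.37-fold the control (0.604 to 3.23), so no rise was detectable at this depth. At 6 h it was 0.157-fold the control (0.0169 to 0.721) on 2 reads against 11. Its density was 0.506, 0.430, 0.999, 0.422 and 0.219 FPKM. The study kept reads with a single best place among transcripts, so reads that CXCL1, CXCL2 and CXCL3 share are lost from all of these values.

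CCL2 was the most abundant member in RNA in all 5 libraries. Its RNA was 48.8, 99.1, 135, 53.4 and 61.5 FPKM, and its density was 90.8, 131, 251, 69.0 and 51.3 FPKM. RNA rose 2.03-fold at 2 h (1.87 to 2.21) and 2.77-fold at 4 h (2.56 to 3.0), and density rose 2.76-fold at 4 h (2.55 to 2.99). At 6 and 19 h RNA stayed slightly above the control while density was below it, 0.760-fold at 6 h (0.678 to 0.851) and 0.565-fold at 19 h (0.492 to 0.647). These counting intervals are narrow, as CCL2 has 291 or more reads in each library, but they do not hold the spread between cultures.

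HBEGF is a membrane-anchored growth factor that binds the EGF receptor once it is shed. Its RNA was 6.50, 22.0, 11.4, 4.31 and 2.93 FPKM and its density 5.34, 20.0, 11.1, 3.50 and 2.98 FPKM in the same order. RNA rose 3.38-fold at 2 h (3.01 to 3.80), and fell to 0.450-fold of the control at 19 h (0.375 to 0.539). Density rose 3.74-fold at 2 h (3.12 to 4.51) and 2.07-fold at 4 h (1.71 to 2.52). The calls of lower RNA at 19 h and of higher density at 4 h were lost with a pseudocount of 1 FPKM in place of the floor, and the latter also once changes were centred on the median of tested genes.

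Among the NF-kB genes, NFKBIA (IkB-alpha, the inhibitor that NF-kB itself induces) had the sharpest early rise. Its RNA was 19.8, 67.9, 29.5, 27.9 and 29.9 FPKM and its density 33.6, 137, 72.6, 54.1 and 54.8 FPKM. RNA rose 3.43-fold at 2 h (3.16 to 3.72) and density 4.08-fold (3.73 to 4.46). From 2 to 4 h its RNA came down to 0.435 of its level (0.406 to 0.466). Its levels of 6 and 19 h stayed above the control, and at 19 h NFKBIA was 1.51-fold the control in RNA (1.38 to 1.66) and 1.63-fold in density (1.46 to 1.82).

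RELB, a subunit of the non-canonical NF-kB dimer, was highest at 4 h. Its RNA was 4.51, 7.29, 11.2, 4.73 and 5.88 FPKM and its density 3.53, 5.53, 14.1, 5.47 and 4.69 FPKM. RNA rose 2.49-fold (2.15 to 2.90) and density 3.99-fold (3.19 to 5.03) at 4 h. TNFAIP3 (A20, the ubiquitin-editing enzyme that dampens NF-kB signalling) had a plateau instead, with RNA of 9.80, 14.0, 13.9, 9.43 and 9.29 FPKM and density of 3.70, 5.54, 5.54, 3.29 and 3.03 FPKM. Its RNA at 2 h was 1.43-fold the control (1.32 to 1.55), short of the 2-fold call, and its levels at 6 and 19 h were within counting error of the control in both assays.

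The tested members were CXCL1, CCL2, HBEGF, NFKBIA, TNFAIP3 and RELB. A gene was called where it differed from the control library of the same assay by at least 2-fold, after values under 1 FPKM were set to 1. In RNA 4 of these 6 were called higher at 2 h, where 0.927% of all tested genes were, and 2 of 6 at 4 h (CCL2 and RELB), where 1.41% were. In density 3 of 6 were called higher at 2 h against 2.12% of tested genes, and 5 of 6 at 4 h against 2.58%, all but TNFAIP3. Called lower in RNA were CXCL1 at 6 h (5.39% of tested genes were) and CXCL1 and HBEGF at 19 h (7.1% were). In density CXCL1 was called lower at 6 h (8.04% of tested genes were) and at 19 h (14.9% were). CXCL1 passed the filter in both assays, and TNFAIP3 and RELB in one or both, only through treated libraries, so these counts describe the genes and do not stand as support for a group response. Over all 10 members, 10 RNA levels were above the control at 2 h and at 4 h, where 35.4% and 33.6% of tested genes were. At 6 h 4 were and at 19 h 5 were, beside 49.7% and 42.8% of tested genes. CXCL2 at 4 h is counted as above on 12 against 11 reads, a ratio of 1.06 (0.430 to 2.66). IL6, IL8, CXCL2 and LIF are not among the tested genes set beside these counts.

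**Figure D2:**
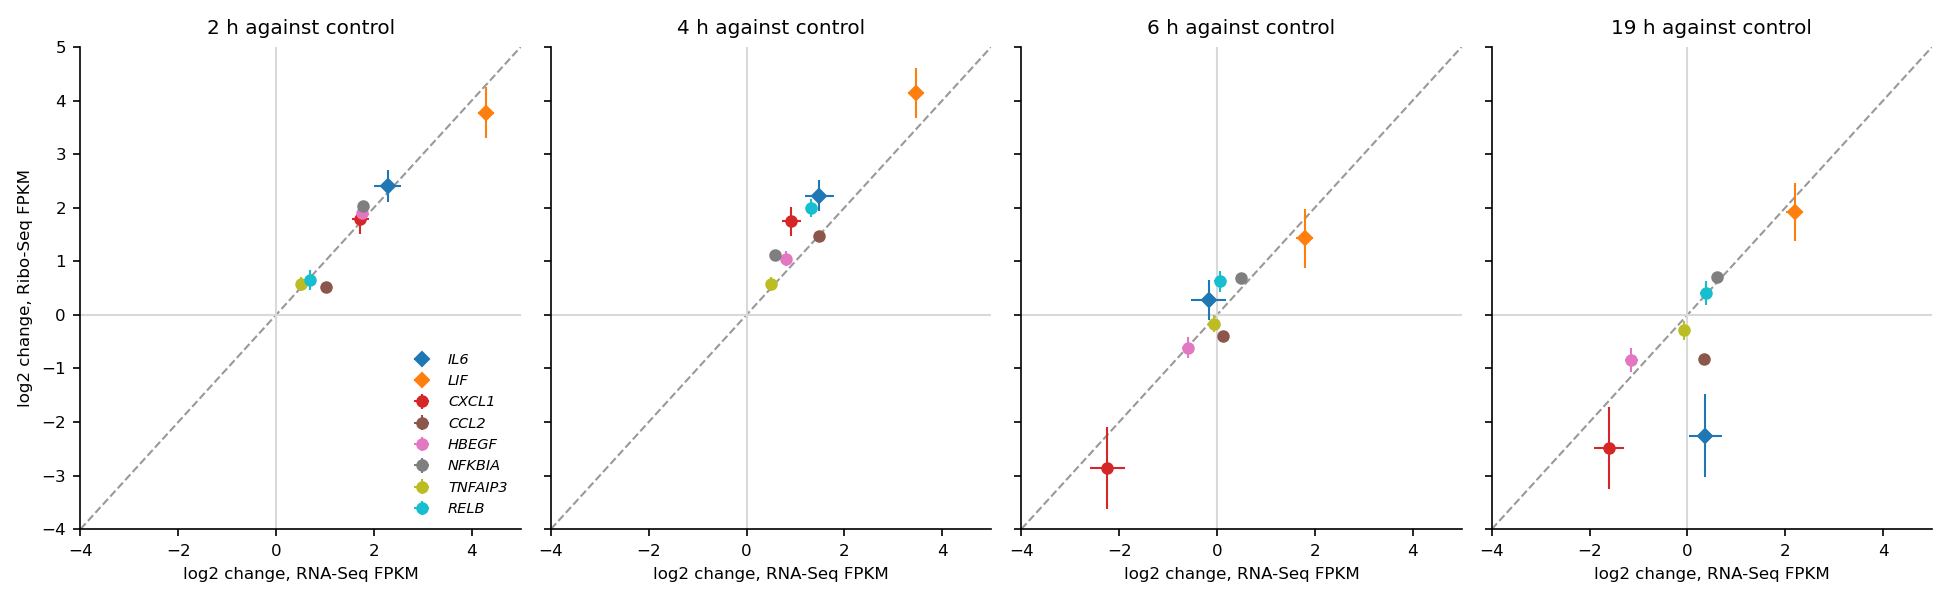
Change of RNA level (x axis) against change of ribosome density (y axis) for 8 members at each time, both as log2 of treated over control FPKM with no floor. Bars are counting SE, circles are the 6 tested members, diamonds are LIF and IL6, which were under the filter, and the dashed line marks equal change in both assays. CCL2 sits below the line at 2, 6 and 19 h, and at 4 h all but CCL2 sit above it, the side on which most tested genes lay.

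Translational efficiency (TE) is the ribosome density over the RNA level. Its change from the control was small for most members. At 2 h and 4 h no tested member was called, in either direction, while 1.2% and 0.998% of tested genes were. At 6 h none was called (5.74% of tested genes were), and at 19 h only CCL2 was (6.14% were). CCL2 density over RNA was 1.86 in the control and 1.32, 1.85, 1.29 and 0.835 after 2, 4, 6 and 19 h. Its log2 TE change from the control was -0.50 (counting SE 0.09), -0.0064 (0.08), -0.53 (0.11) and -1.16 (0.12) in the order of the treated times. The median over all tested genes was 0.045, 0.18, 0.0021 and -0.07 in the same order, so that at 4 h it was above the value of CCL2.

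At 4 h TE was above the control for 8 of the 9 members with both values, all but CCL2. The median over tested genes was above the control too, so this direction was not particular to the members. The share of tested genes above it was not counted. For CXCL2 the TE ratio was 1.86 (0.558 to 6.17), on 17 Ribo-Seq reads against 7 in the control. The log2 change was 0.83 (counting SE 0.34) for CXCL1, 0.68 (0.20) for RELB, 0.54 (0.10) for NFKBIA, 0.25 (0.17) for HBEGF and 0.08 (0.14) for TNFAIP3, beside the median of 0.18 over tested genes. RELB kept a value of 0.56 (0.23) at 6 h. At 19 h IL6 RNA was 1.29-fold and its density 0.209-fold that of the control, the latter on 4 Ribo-Seq reads.

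The ratio of density to RNA differed between members in every library. It ran from 1.70 to 2.46 for NFKBIA and from 0.812 to 1.02 for HBEGF, while it was 0.326 to 0.399 for TNFAIP3 and 0.156 to 0.354 for LIF. The median over tested genes lay between 0.795 and 0.935. FPKM is scaled to the whole transcript here, so the share of a transcript that is coding enters such a ratio, and it was not corrected for. The Ribo-Seq composition moved as well: density of FN1, the matrix protein fibronectin, was 147, 476, 220, 696 and 781 FPKM in the order control, 2, 4, 6 and 19 h, and that of COL1A1 was 1063, 1992, 1070, 3984 and 5262. Its part in the density and TE values of the members was not tested.

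**Figure D3:**
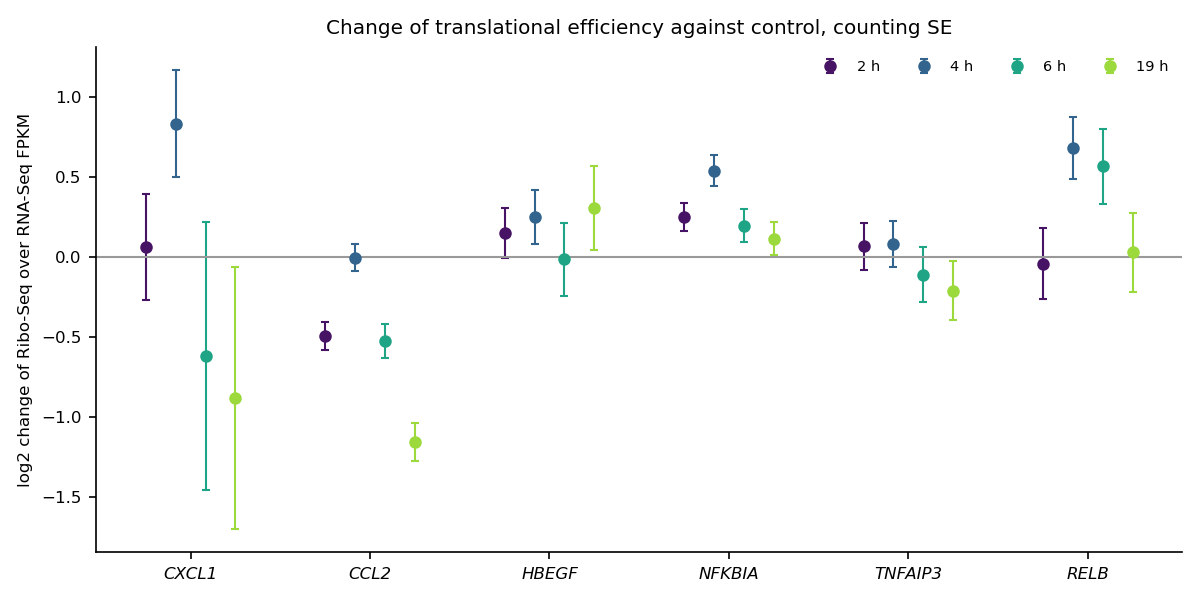
Log2 change of density over RNA against the control for the 6 tested members, with no floor, one point per time and bars of counting SE. CCL2 reaches -1.16 at 19 h, and the points of 4 h lie highest for CXCL1, NFKBIA and RELB.

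The other genes of the pathway came from 7 lists. Of 9 other NF-kB subunits and inhibitors 6 were tested, and 1 rose in RNA at 2 h, BCL3, a nuclear IkB protein, from 6.15 to 13.2 FPKM. In density NFKBIZ, another nuclear IkB protein, rose from 2.73 to 9.35 FPKM at 2 h, and it and NFKB2, which encodes the partner of RELB, were called higher at 4 h, where NFKB2 stood at 18.7 against 8.47 FPKM. BCL3 was called higher in density at 6 h, with 6.186 against 3.045 FPKM. The median RNA change of these 6 in log2 was 0.28 at 2 h and 0.41 at 4 h, beside -0.05 and -0.07 over all tested genes. Of 22 other NF-kB signalling genes 13 were tested, and none was called higher in RNA at any time (medians 0.01 and 0.04 at 2 and 4 h). TRAF2, an adaptor of TNF receptors, was called lower at 6 and 19 h, with 4.35 and 4.31 against 10.9 FPKM. TRAF2 and CHUK, a subunit of the kinase that marks IkB for destruction, were also called lower in density at 19 h.

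Of 13 other NF-kB response genes 9 were tested, with a median RNA change of 0.30 at 2 h and 0.30 at 4 h. PTGS2 (cyclooxygenase-2, the inducible prostaglandin synthase) rose at both times, from 29.2 FPKM to 79.6 and 75.8, and ICAM1, a leukocyte adhesion receptor, rose at 4 h, from 3.76 to 8.76. In density PTGS2 was called higher at 2 and 4 h, with 67.7 and 48.3 against 19.3 FPKM. ICAM1 density was called higher at 2, 4 and 19 h, with 8.91, 10.8 and 9.59 against 4.32 FPKM. PTX3, a secreted pattern recognition protein, was called lower in RNA at 6 and 19 h, with 52.4 and 63.1 against 161 FPKM. Its density was called lower at 6 h, with 113 against 268 FPKM. Of 27 other cytokines and chemokines only 5 were tested. IL11, a further gp130 cytokine, rose from 13.3 FPKM to 41.1 at 2 h and 32.6 at 4 h in RNA, and from 8.31 to 23.0 and 38.1 in density. Its density was still called higher at 6 and 19 h, with 17.5 and 20.6 FPKM. CSF1, the macrophage growth factor, rose later, from 16.5 FPKM to 35.0 at 4 h and 36.3 at 19 h. In density CSF1 was called higher at 4, 6 and 19 h, with 25.8, 33.0 and 31.8 against 11.5 FPKM. CTF1, also on this list, was called higher in density at 19 h, with 7.37 against 3.42 FPKM.

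The last lists hold receptors and decay factors that act around these cytokines. Of 11 genes of IL6-family receptors and signalling 7 were tested, and 1 was called in RNA. It was SOCS3, the feedback inhibitor of gp130, at 26.6 against 11.6 FPKM at 2 h. SOCS3 density was called higher at 2 h too, with 23.4 against 8.57 FPKM. Among 12 listed genes of the EGF receptor, its other ligands and sheddases 6 were tested and none was called in RNA. NRG1, a ligand of the related ERBB receptors, was called higher in density at 4 and 6 h, with 37.1 and 36.4 against 17.0 FPKM. Of 10 regulators of AU-rich mRNA decay 9 were tested. ZC3H12A (regnase-1, a nuclease that degrades cytokine mRNAs) rose from 2.91 to 11.0 FPKM in RNA and from 1.71 to 7.07 in density at 2 h. Its density was also called higher at 4 and 19 h, with 5.13 and 3.95 FPKM. HNRNPD (AUF1) was called lower in RNA at 19 h, with 40.3 against 94.2 FPKM. In density HNRNPD was called lower at 6 and 19 h, with 61.7 and 50.7 against 126 FPKM. The median RNA change of the 9 was 0.06, -0.15, -0.56 and -0.07 at 2, 4, 6 and 19 h. Over all tested genes it was -0.05, -0.07, -0.0024 and -0.07. The median density change of the 9 at 6 h was -0.31.

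**Figure D4:**
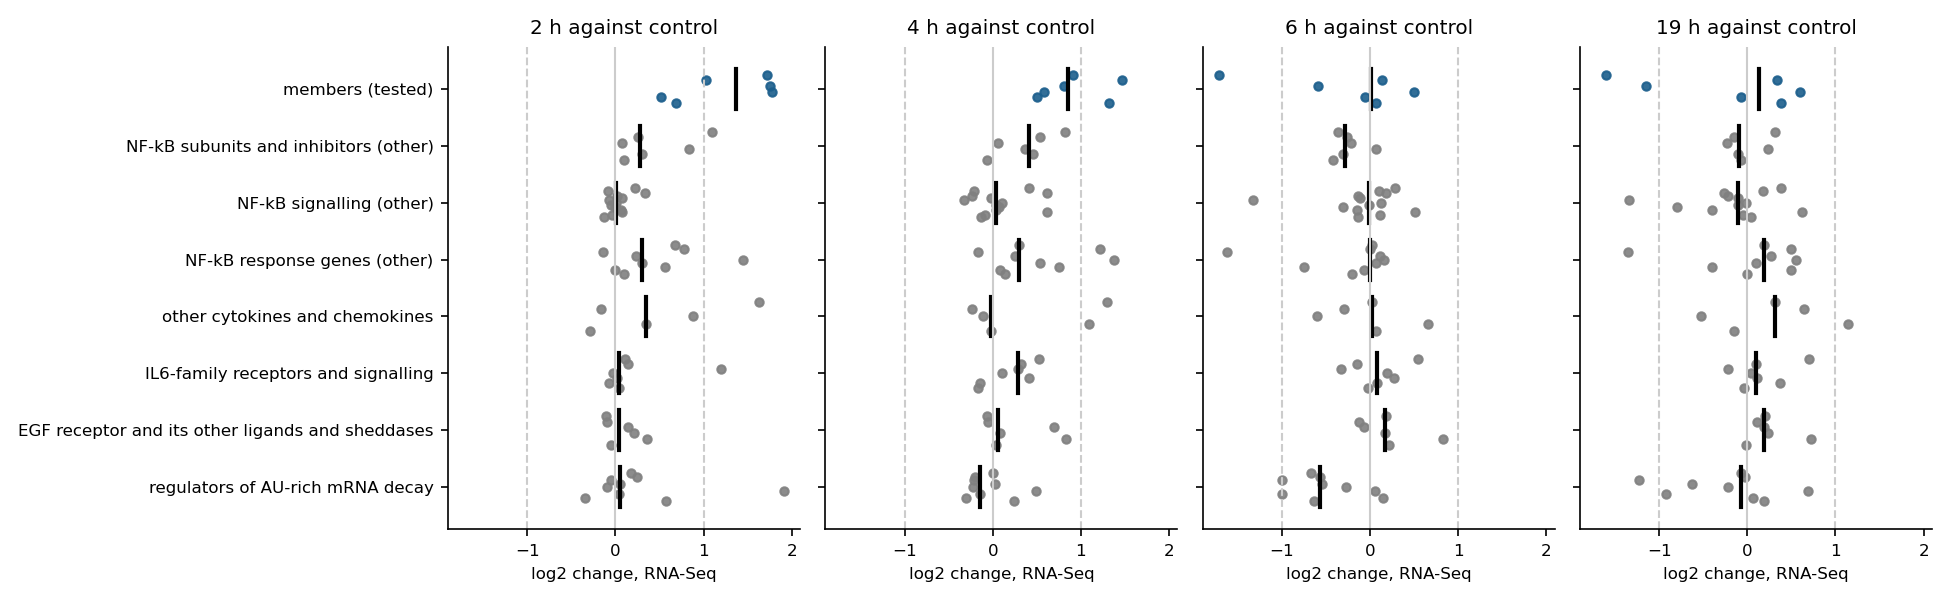
Log2 RNA change against the control (x axis) of each tested gene, by gene list (rows), at 2, 4, 6 and 19 h. Points are genes with values floored at 1 FPKM, black bars are list medians and dashed lines mark 2-fold, and 4 of the 6 tested members lie right of the upper line at 2 h.

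The tested genes whose 4 RNA changes were nearest to the median of CXCL1 and CCL2 were ERRFI1, an inhibitor of the EGF receptor, ITPRIP and SPRY4, an inhibitor of receptor tyrosine kinase signalling. That median was 1.37 and 1.19 at 2 and 4 h and -0.79 and -0.63 at 6 and 19 h. The late values belong to neither gene, since floored changes of CXCL1 were -1.72 and -1.60 and those of CCL2 were 0.13 and 0.33. The root mean square differences of these genes over the 4 times were 0.18, 0.27 and 0.30 on the log2 scale. ERRFI1 RNA changed by 1.70 and 1.16 at 2 and 4 h, and stood at -0.69 and -0.58 at 6 and 19 h. Nearest to the median of NFKBIA, TNFAIP3 and RELB were DUSP6, an ERK phosphatase, CDC42EP2 and SPRY2, with differences of 0.10, 0.11 and 0.11. The median of these members was 0.69, 0.58, 0.07 and 0.38, and none of the nearest genes was called in RNA at 2-fold. That median is the value of RELB at 2, 6 and 19 h and of NFKBIA at 4 h. It leaves out the larger rises of NFKBIA at 2 h (1.78) and of RELB at 4 h (1.32). IL6 and LIF were not tested and no such genes were named for them.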

How the data were processed

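Poly(A) RNA-Seq and Ribo-Seq libraries of BJ cells were analysed, 1 per assay and time (control and 2, 4, 6 and 19 h of nutlin-3a). The authors deposited FPKM values. Per their methods and the labels, reads were aligned with Bowtie (hg19) to 1 protein-coding transcript per gene of Ensembl release 65, and unique hits were kept. The methods describe Ribo-Seq values from coding reads, but the columns are named total and whole-transcript lengths suited both tables, so reads outside the coding sequence may be included. The study's library list gives a lower share of coding reads in its nutlin control than at 6 and 19 h. It also gives a lower share of reads in frame for that run than for its other Ribo-Seq runs. What this does to density and TE changes was not tested. Ribo-Seq was taken from the name of 1 table. The other table was read as RNA-Seq, and 20 of 27 histone transcripts, whose mRNAs lack poly(A), were under 1 FPKM in its control, against 0 in that of Ribo-Seq.

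The step between possible FPKM values (3 decimals) gave back read numbers for 11254 of the 11258 transcripts in both tables, a step tested on simulated data. The reads gave exact binomial 95% intervals of ratios, Poisson intervals of levels and counting SEs. PCR copies and read pairs could not be told apart, and the intervals cover counting error only.

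Values were floored at 1 FPKM, the 7015 tested genes reached 5 FPKM in 1 or more libraries of both assays, and a call was a 2-fold difference from the control of the same assay. Folds in the text are of deposited values with no floor, while list medians and TE medians of tested genes use the floor. The members and lists were chosen with earlier results of these data known. Named beside the members were, from each list, at most the 4 called genes with the largest RNA change, and per role group the 3 tested genes nearest to its median RNA profile. Promoters came from RefSeq (GRCh38.p14), with entries for 7 members. Python 3.11.15, numpy 2.4.6, pandas 2.3.3, scipy 1.17.1 and matplotlib 3.10.9 were used. Alternatives were another floor, a pseudocount, other filters, the 2 h library as baseline, centring on the median and a 1.5-fold call.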

Additional observations from a re-analysis of the deposited data

Results flagged for a closer look

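For 4 members the treated libraries lay at least 2-fold above the control at one time and at most at 0.5 of it at another, with both counting intervals clear of 1. These differences between times were not tested, as each time has 1 library. IL8 RNA was 7.41-fold the control at 4 h and 0.264-fold at 19 h (95% interval 0.149 to 0.444), a span of 4.81 on the log2 scale. With values floored at 1 FPKM the log2 change of IL8 RNA at 19 h was -0.70, short of 2-fold. CXCL1 RNA was 3.30-fold at 2 h and 0.211-fold at 6 h, a span of 3.97, and CXCL1 density was 3.44-fold and 0.137-fold at the same times, a span of 4.65. IL6 density was 5.30-fold at 2 h and 0.209-fold at 19 h, a span of 4.66 that rests on 4 reads at 19 h. With the floor its log2 change at 19 h was -0.72, also short of 2-fold. HBEGF RNA was 3.38-fold at 2 h and 0.450-fold at 19 h, a span of 2.91.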

How the results depend on the processing

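Counts are of tested members called, and each percentage is the share of all tested genes called in either direction under the same setting. The main counts were 4, 2, 1 and 2 in RNA at 2, 4, 6 and 19 h (0.941%, 2.10%, 7.14% and 9.59%). They were 3, 5, 1 and 1 in density (2.25%, 3.11%, 13.3% and 21.1%), and 0, 0, 0 and 1 in TE (1.20%, 0.998%, 5.74% and 6.14%). With a floor of 5 FPKM no member was called at 6 or 19 h in RNA (0 and 0, beside 5.99% and 8.20%) or density (0 and 0, beside 9.98% and 16.2%). With a pseudocount of 1 FPKM 1 was called in RNA at 19 h (8.44%). With a mean of at least 20 FPKM only CCL2 and NFKBIA were tested. Their counts were 2, 1, 0 and 0 in RNA (1.08%, 1.70%, 5.03% and 7.90%) and 1, 2, 0 and 0 in density (2.94%, 1.94%, 11.8% and 21.8%). With no filter 9 members entered, and 4 were called in RNA at 4 h (2.05%), 2 at 6 h (6.75%) and 5 in density at 2 h (1.97%). In TE 1, 1, 1 and 2 were called (1.28%, 1.67%, 6.55% and 6.66%). The TE calls of LIF under that setting come with densities that the floor raises, that of the control and those of 6 and 19 h. At these 2 late times the floored density did not change, and only the RNA change was left. With a 1.5-fold call the counts were 4 and 2 in RNA at 4 and 6 h (7.08% and 17.3% of tested genes), 4 and 4 in density at 6 and 19 h (34.0% and 44.7%), of which 2 and 1 were higher, and 2 in TE at 4 h (9.95%). Against the 2 h library in place of the control, 1 and 3 were called in RNA at 4 and 6 h (1.77% and 8.33%). In density that baseline gave 1, 3 and 4 at 4, 6 and 19 h (3.48%, 9.45% and 14.8%), and 0 in TE at 19 h (2.54%). All of these calls were lower except the 1 in density at 4 h. Changes at 4 h then had the opposite sign for CXCL1 (-0.81 in RNA and -0.040 in density), HBEGF (-0.95 and -0.85) and NFKBIA (-1.20 and -0.91), and for TNFAIP3 RNA (-0.014), since they are taken from 2 h. Centring on the median of tested genes kept every count within 1.5 times. Of 294 changes of single members under other floors, filters, centring or baseline, 33 had the opposite sign to the main value, 20 of them against the 2 h library, and 3 of the 33 had been called. Apart from these 3, 57 moved beyond their 95% counting interval and 234 stayed within it. No paired analysis was possible because every group held 1 library. Values that rest on under 20 reads are those of CXCL2, of IL6 density at 19 h, CXCL1 density at 6 and 19 h, LIF density in the control and IL8 RNA at 19 h.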
